A study of Homo sapiens with 6 samples.

Results

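The genes described here are 10 genes of the NRF2 and glutathione redox system, namely NFE2L2, KEAP1, HMOX1, NQO1, GCLC, GCLM, SRXN1, TXNRD1, GSR and GPX4. They were chosen by name, with earlier results of these data known, and each symbol was matched to a single identifier. All 10 were found among the 23026 genes of the deposited normalized table and among the 58174 genes of the raw count tables. The cells were T98G, a human glioblastoma line, infected with a lentivirus that carried either a control short hairpin RNA (shControl) or a hairpin directed against the protein kinase DYRK1A (shDYRK1A). Cells of both groups were selected with puromycin, left to recover without it, and mixed in equal numbers with a fixed number of Drosophila Kc167 cells, whose RNA served as an external scale (spike-in). Each group had 3 libraries, labelled 1A, 1B and 1C, and values below are given in that order. Which DYRK1A hairpin was used for these libraries is not given in the labels, and no label states that the 3 libraries came from separate cultures, so the p-values measure the spread between these libraries, which may be technical.

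NRF2, the protein of NFE2L2, is a transcription factor that binds antioxidant response elements together with small MAF proteins and activates genes for detoxification, glutathione synthesis and the thioredoxin system. KEAP1 holds NRF2 in the cytoplasm and presents it to a CUL3 ubiquitin ligase for degradation, and oxidants or electrophiles that modify KEAP1 cysteines let NRF2 accumulate. Because this control acts on the protein, the level of the NFE2L2 transcript is not a measure of NRF2 activity. Glutathione is made from cysteine, glutamate and glycine, is oxidised when peroxides are reduced, and is returned to its reduced form by glutathione reductase.

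The promoter sequences are shown because the element that NRF2 recognises can be read in them. RefSeq promoter windows on GRCh38.p14, which run from 250 bases before to 50 bases after a transcript start, were available for 8 of the 10 genes and comprised 13 windows, since some genes have several starts. Each window was searched on both strands for the antioxidant response element core, TGACNNNGC, which occurred in 13.3% of all 35116 windows in the table, and it was found in 4 of the 13 windows, in GCLM, KEAP1 and TXNRD1. Positions count from the start, with 1 as the first transcribed base and -1 as the base before it. The sequences below are read along the gene, 5′ to 3′, with matches to the core in capitals. A core on the opposite strand therefore appears as its reverse complement. The first is GCLM on the minus strand (chr1:93909381-93909680), followed by both TXNRD1 starts on the plus strand (chr12:104215529-104215828 and chr12:104286782-104287081), the KEAP1 start that holds the core on the minus strand (chr19:10502722-10503021), and GCLC on the minus strand (chr6:53545052-53545351), which held no match and is shown for comparison with its partner subunit.
GCLM: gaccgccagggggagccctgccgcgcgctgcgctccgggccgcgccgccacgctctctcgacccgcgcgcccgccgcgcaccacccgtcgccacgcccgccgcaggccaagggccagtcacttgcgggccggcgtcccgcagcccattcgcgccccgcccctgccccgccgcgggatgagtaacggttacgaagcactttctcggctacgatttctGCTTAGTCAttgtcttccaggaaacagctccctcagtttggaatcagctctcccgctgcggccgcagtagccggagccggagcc
TXNRD1, start 1: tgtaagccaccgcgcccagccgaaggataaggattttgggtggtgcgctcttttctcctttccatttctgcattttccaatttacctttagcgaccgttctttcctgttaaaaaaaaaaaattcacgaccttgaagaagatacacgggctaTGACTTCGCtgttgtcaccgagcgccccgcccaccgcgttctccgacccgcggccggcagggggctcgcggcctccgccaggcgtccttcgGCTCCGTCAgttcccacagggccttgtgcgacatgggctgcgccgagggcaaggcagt
TXNRD1, start 2: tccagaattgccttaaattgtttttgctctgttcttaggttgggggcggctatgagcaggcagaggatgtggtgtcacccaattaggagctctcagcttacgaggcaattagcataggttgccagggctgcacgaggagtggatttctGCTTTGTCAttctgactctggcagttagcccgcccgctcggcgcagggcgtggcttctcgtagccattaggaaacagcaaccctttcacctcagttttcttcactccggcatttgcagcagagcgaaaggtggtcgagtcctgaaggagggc
KEAP1, start 2: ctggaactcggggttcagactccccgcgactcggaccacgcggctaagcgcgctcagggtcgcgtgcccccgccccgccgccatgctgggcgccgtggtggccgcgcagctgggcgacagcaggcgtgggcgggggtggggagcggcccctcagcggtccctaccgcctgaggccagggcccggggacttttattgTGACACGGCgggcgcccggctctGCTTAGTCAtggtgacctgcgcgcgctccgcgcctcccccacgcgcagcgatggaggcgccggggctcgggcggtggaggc
GCLC: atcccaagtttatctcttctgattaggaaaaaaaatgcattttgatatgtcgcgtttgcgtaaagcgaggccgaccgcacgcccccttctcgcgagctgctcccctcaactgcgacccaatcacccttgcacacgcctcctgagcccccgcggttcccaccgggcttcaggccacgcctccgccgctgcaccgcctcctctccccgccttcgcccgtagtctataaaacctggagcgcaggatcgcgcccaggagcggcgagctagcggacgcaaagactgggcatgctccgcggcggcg

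The GCLM window held 1 core on the opposite strand at -34 to -26, with the letters TGACTAAGC. The KEAP1 window held the same 9 letters on the opposite strand at -31 to -23 and a further core on the strand of the gene, TGACACGGC, at -54 to -46. At start 1 of TXNRD1 the core TGACTTCGC lay at -99 to -91 on the strand of the gene and TGACGGAGC lay across the start, at -8 to 1, on the opposite strand. At start 2 the core TGACAAAGC lay at -102 to -94 on the opposite strand. The windows of NFE2L2, NQO1, GCLC, SRXN1 and GPX4 held none of these letters, which says nothing about elements outside the 300 bases. None of the 13 windows held the AP-1 element TGANTCA, found in 7.71% of all windows, or an exact match to the palindrome TCTCGCGAGA, found in 0.424%. The study examined this palindrome and graded its matches by p-value, so inexact matches that it may accept were not searched for. The GCLC window held tctcgcgagc, which differs from the palindrome in the last letter. With no AP-1 element in these windows, no core could overlap one.

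**Figure D1:**
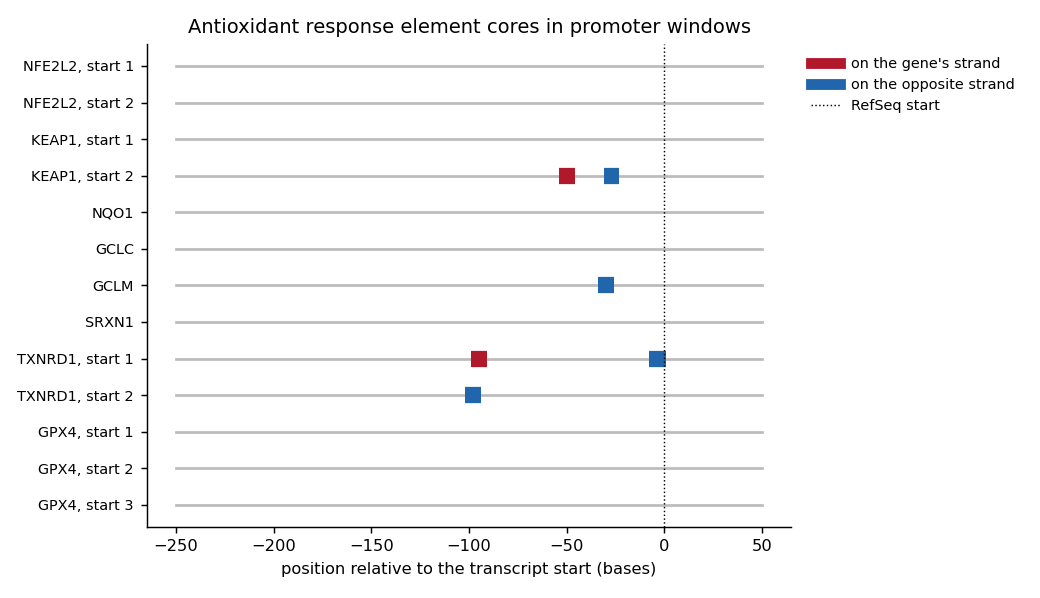
Positions of the antioxidant response element core, TGACNNNGC, in the 13 promoter windows of 8 genes; the x axis is the distance from the RefSeq start in bases and colour gives the strand. Cores are seen in 4 windows, with GCLM and KEAP1 start 2 carrying one at nearly the same distance from the start.

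The libraries held 33708297 to 42154438 counts in genes. Divided by the spike-in size factors, the totals spanned 40116360 to 48090252 in shControl and 31230657 to 36658657 in shDYRK1A, and the median log2 fold change of the 9697 genes tested was -0.40. With TMM scaling, which sets the bulk of human genes to no change, that median was 0.00. Each member is therefore given under both scalings, as is each further gene with a printed fold change whose direction differed between them. In such bulk libraries a smaller number of cells of a type and less RNA per cell cannot be told apart. The target DYRK1A had raw counts of 1829, 1969 and 1946 in shControl and 1568, 1140 and 1560 in shDYRK1A, and its log2 fold change was -0.73 ± 0.15 (SE, adjusted p = 5.33e-06) and -0.34 under TMM. When shDYRK1A 1B, shControl 1A or shControl 1B was left out it lay between -0.70 and -0.61, on the other side of the fold threshold. Of 6 glioblastoma markers VIM and CD44 were abundant, NES was at 42.8 to 96.5 normalized counts, SOX2 and GFAP were at or near 0 and S100B was at 0. The 8 markers of other cell types summed to 1034 to 1143 normalized counts in shControl and 1158 to 1316 in shDYRK1A, mostly from the keratin gene KRT8, while the immune markers PTPRC and CD68 and the neuronal marker RBFOX3 were at or near 0. Mitochondrial genes took 4.97 to 5.23% of counts in shControl and 5.46 to 5.69% in shDYRK1A, and unmapped reads reached 15.6% in shDYRK1A 1B against 8.44 to 11.9% in the others. The part of these shares in the results was not tested.

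Among the 10 genes, both subunits of the rate-limiting enzyme of glutathione synthesis, glutathione reductase and cytosolic thioredoxin reductase fell after DYRK1A depletion, to between 0.452 and 0.533 of their shControl level. HMOX1, NQO1 and NFE2L2 itself fell to between 0.651 and 0.745 of theirs, where the median log2 fold change of all genes was -0.40. Under TMM HMOX1 still passed the test by its adjusted p, and NQO1 and NFE2L2 did not. KEAP1 and GPX4 did not pass the test with the spike-in scale, and SRXN1 was too low for the filter. A call required an adjusted p under 0.05 (edgeR, Benjamini-Hochberg over all 9697 genes) together with a log2 fold change beyond 0.7 in either direction. By that rule 4 of the 9 members tested were called lower (TXNRD1, GCLM, GCLC and GSR), against 14.3% of all genes, and 0 were called higher, against 0.278%. With TMM scaling 1 of the 9 was called lower, TXNRD1, against 187 of all 9697 genes. The calls of GCLM, GCLC and GSR fell short of the fold threshold while their adjusted p stayed under 0.05. By the adjusted p alone 7 of 9 were lower, against 63.4% of all genes, which is close to the background. Every shDYRK1A library was below every shControl library in 9 of the 10 genes, all but KEAP1, where 63.6% of all genes tested showed this pattern. The median log2 fold change of the 9 members was -0.62, which is -0.22 relative to all genes.

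**Figure D2:**
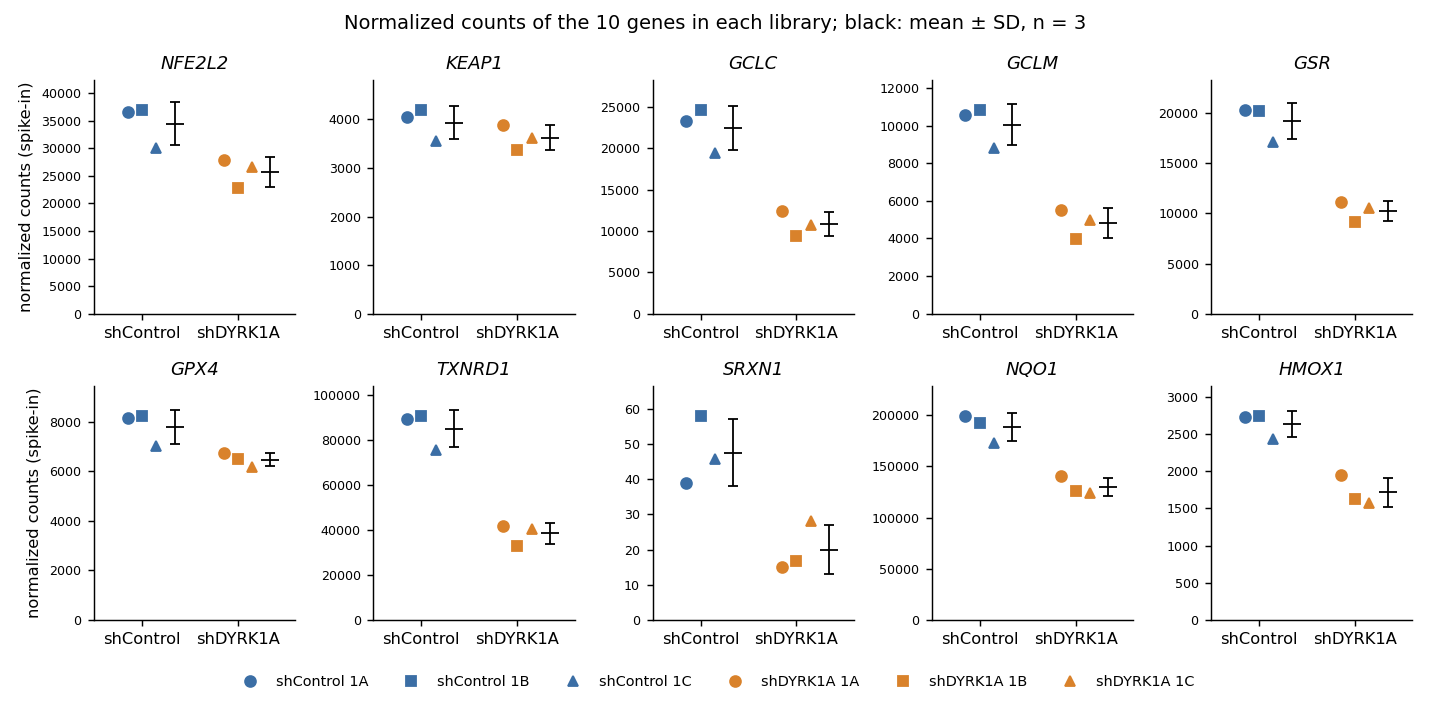
Spike-in normalized counts of the 10 genes, 1 panel each, with 1 point per library and the mean ± SD of 3 libraries in black; every y axis is linear and starts at 0. The groups are apart in 9 panels and overlap for KEAP1.

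**Figure D3:**
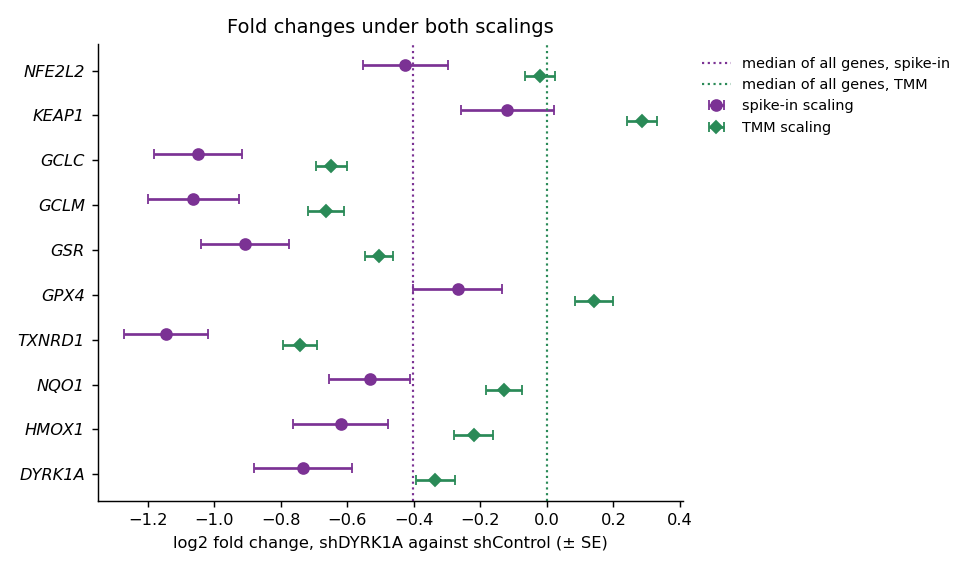
Log2 fold change of shDYRK1A against shControl ± SE for 9 of the genes and for DYRK1A, with spike-in scaling (circles) and TMM scaling (diamonds); dotted lines mark the median of all genes under each, -0.40 and 0.00. TXNRD1, GCLM, GCLC and GSR lie well to the left of both medians, NFE2L2 lies close to them, and KEAP1 and GPX4 lie to the right.

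NFE2L2, the gene of the NRF2 factor itself, lies on the minus strand of chromosome 2 at 177227595 to 177392697 (GRCh38). It had 36518, 36927 and 30111 normalized counts in shControl and 27817, 22739 and 26561 in shDYRK1A. All 3 shDYRK1A libraries were below the shControl libraries, with the narrowest gap to shControl 1C. The log2 fold change was -0.43 ± 0.13 (SE, adjusted p = 0.00232), and the level decreased by 25.5%. Its adjusted p stayed under the threshold whichever of the 6 libraries was left out. This was almost the shift of the typical gene, since 46.2% of all genes had a lower fold change. As TMM-scaled CPM, that is counts relative to the scaled library total, the values were 782, 793 and 770 against 758, 754 and 799, so the groups overlapped, and the log2 fold change was -0.02 ± 0.04 (adjusted p = 0.718). NFE2L2 shares 17.6% of its exon bases with AC019080.1, a gene on the same strand, so its count carries that uncertainty. Of all other genes, DCP2, TYW3 and PCNT followed its normalized counts most closely over the 6 libraries. Their root-mean-square differences were 0.00625, 0.0103 and 0.0142 in centred log2 values, where the median over all genes was 0.119. As the 3 smallest of all distances they lie below that median by selection, and shared regulation was not tested.

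KEAP1, the adaptor that targets NRF2 for degradation, lies on the minus strand of chromosome 19 at 10486120 to 10503741. It had 4056, 4190 and 3555 normalized counts in shControl and 3881, 3373 and 3614 in shDYRK1A. The groups overlapped, and the log2 fold change of -0.12 ± 0.14 did not pass the test (adjusted p = 0.443). In relation to other genes KEAP1 stood high, with 86.5% of genes below it in fold change. The TMM-scaled values were 86.9, 89.9 and 90.9 CPM in shControl and 106, 112 and 109 CPM in shDYRK1A, all 3 above the control libraries. The direction thus turned with the scaling, to a log2 fold change of 0.29 ± 0.04 under TMM (adjusted p = 0.000228), where 27.3% of all genes were higher and 28.6% lower by the adjusted p alone. That difference also passed whichever of the 6 libraries was left out.

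The ratio of NFE2L2 to KEAP1 counts inside a library does not depend on the scaling between libraries. It came to 9.0, 8.81 and 8.47 in shControl and to 7.17, 6.74 and 7.35 in shDYRK1A, so the ratio was lower in all 3 shDYRK1A libraries. The difference in mean log2 ratio was -0.31. Its p was 0.1 in a two-sided exact permutation test and 0.15 when adjusted over the 3 ratios examined. That is the smallest p this permutation test can give for 3 libraries against 3, so it cannot pass 0.05 here whatever the size of the difference.

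GCLC encodes the catalytic subunit of glutamate-cysteine ligase, the rate-limiting enzyme of glutathione synthesis, and lies on the minus strand of chromosome 6 at 53497341 to 53616970. Normalized counts were 23379, 24622 and 19473 in shControl against 12402, 9422 and 10771 in shDYRK1A. The groups lay far apart, with shDYRK1A 1A, the upper library of its group, well below shControl 1C. The log2 fold change was -1.05 ± 0.13 (adjusted p = 1.35e-13), and the level decreased by 51.7%, while 2.46% of genes had a lower one. A share of 6.12% of its exon bases is common with AL033397.1, a long noncoding gene on the same strand.

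GCLM encodes the modifier subunit of the same enzyme and lies on the minus strand of chromosome 1 at 93885205 to 93909456. It had 10549, 10812 and 8797 normalized counts in shControl and 5502, 3956 and 4979 in shDYRK1A. The order of libraries inside each group was that of GCLC, and also that of NFE2L2, KEAP1 and TXNRD1. GCLM changed by -1.06 ± 0.14 on the log2 scale (adjusted p = 3.13e-13), and the level decreased by 52.1%, while 2.37% of genes had a lower one. Its promoter window carries the core shown above and that of GCLC does not. Whether the core has a part in the fold change of either gene was not tested.

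The ratio of GCLC to GCLM counts came to 2.22, 2.28 and 2.21 in shControl and to 2.25, 2.38 and 2.16 in shDYRK1A. These ranges overlapped, with a difference in mean log2 ratio of 0.02 (two-sided exact permutation p = 0.8, adjusted 0.80), which became -0.02 without shDYRK1A 1B. With TMM scaling GCLC fell by 0.65 on the log2 scale (adjusted p = 8.17e-07) and GCLM fell by 0.66 (adjusted p = 1.88e-06), which kept the direction of both but placed them just inside the fold threshold of 0.7.

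GSR, glutathione reductase, returns oxidised glutathione to its reduced form with NADPH and lies on the minus strand of chromosome 8 at 30678061 to 30727926. The shControl libraries had 20281, 20232 and 17085 normalized counts and the shDYRK1A libraries 11087, 9095 and 10527. No library of one group came near the other. GSR had a log2 fold change of -0.91 ± 0.13 (adjusted p = 2.21e-10), and the level decreased by 46.7%, with 4.98% of genes lower. Under TMM it was -0.50 ± 0.04 (adjusted p = 2.16e-06).

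TXNRD1, the cytosolic thioredoxin reductase, is a selenoprotein that reduces thioredoxin with NADPH, and it lies on the plus strand of chromosome 12 at 104215779 to 104350305. There were 89437, 90587 and 75551 normalized counts in shControl and 41898, 33075 and 40648 in shDYRK1A. Every shDYRK1A library was thus far below every shControl library. The log2 fold change was -1.14 ± 0.13 (adjusted p = 2.57e-17), and the level decreased by 54.8%. This was the lowest fold change of the 9 members tested, and 1.56% of all genes had a lower one. Of the 9 members past the filter it was also the only one past both thresholds under TMM scaling, at -0.74 ± 0.05 (adjusted p = 4.87e-07), and it passed both in all 6 TMM fits that left out 1 library.

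TXNRD1 was also set against GSR, the other NADPH-dependent disulfide reductase of the set. The ratio of their counts came to 4.41, 4.48 and 4.42 in shControl and to 3.78, 3.64 and 3.86 in shDYRK1A, with no overlap. The difference in mean log2 ratio was -0.24 (two-sided exact permutation p = 0.1, adjusted 0.15, again the smallest p that test can give).

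**Figure D4:**
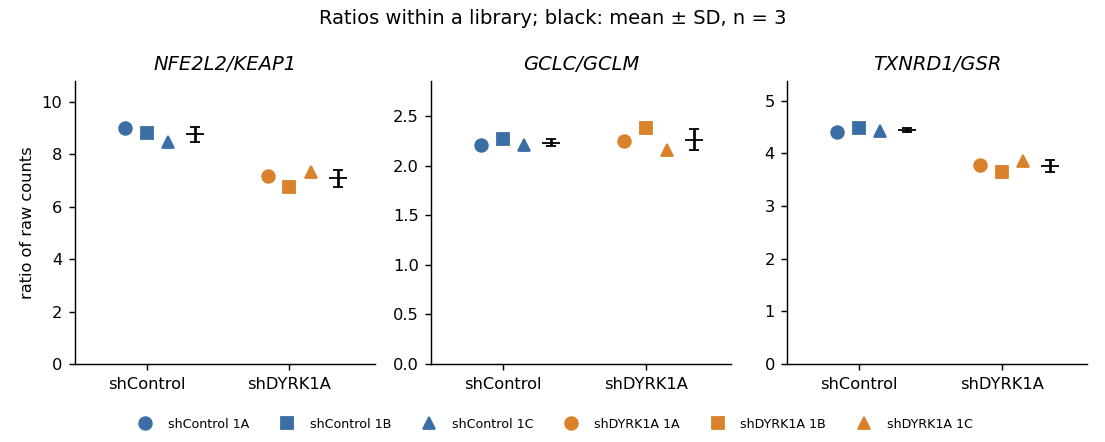
Ratios of raw counts inside each library for NFE2L2 to KEAP1, GCLC to GCLM and TXNRD1 to GSR, with 1 point per library, the mean ± SD of 3 libraries in black and y axes from 0. The first and the last ratio are lower in all 3 shDYRK1A libraries, and the GCLC to GCLM ratio overlaps between the groups.

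SRXN1 encodes sulfiredoxin, which restores overoxidised peroxiredoxins, and lies on the minus strand of chromosome 20 at 646615 to 653370. It had raw counts of 32, 51 and 47 in shControl and 16, 18 and 34 in shDYRK1A, a mean of 0.858 CPM, under the filter of 10. In spike-in normalized counts the values were 39.0, 57.9 and 45.8 against 15.1, 16.7 and 28.0, so the shDYRK1A libraries were lower, but as TMM-scaled CPM the groups overlapped. Without the filter the log2 fold change was -1.24 ± 0.33 (adjusted p = 0.00178) and under TMM -0.88 ± 0.29 (adjusted p = 0.0140). Leaving out 1 library kept the first under the adjusted p threshold in 6 of 6 fits and the latter in 3 of 6, with an adjusted p of 0.149 when shDYRK1A 1A, 0.108 when shControl 1B and 0.0853 when shControl 1C was dropped. A share of 85.0% of its exon bases is common with AL121758.1, a protein-coding gene on the same strand that had 1 count in all 6 libraries, so how many SRXN1 reads were left out as ambiguous is unknown and its level is uncertain.

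NQO1, a quinone reductase and the member with the highest level, lies on the minus strand of chromosome 16 at 69706996 to 69726951. The shControl libraries had 198838, 192851 and 173005 normalized counts and the shDYRK1A libraries 140337, 125798 and 124072. All shDYRK1A libraries were lower, by a smaller proportion than for GCLC and GCLM. NQO1 had a log2 fold change of -0.53 ± 0.12 (adjusted p = 6.33e-05), and the level decreased by 30.9%, while 31.1% of genes were lower still. Under TMM it was -0.13 ± 0.05 with overlapping groups (adjusted p = 0.0602), and without shDYRK1A 1B that became -0.17 (adjusted p = 0.000816). Opposite 17.7% of its exon bases lies the antisense gene AC092115.2, and whether the counting used strand is not given in the sources used here.

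HMOX1, heme oxygenase 1, breaks heme down to biliverdin, iron and carbon monoxide and lies on the plus strand of chromosome 22 at 35380361 to 35394214. It had 2731, 2740 and 2441 normalized counts in shControl and 1944, 1628 and 1576 in shDYRK1A, without overlap. The log2 fold change was -0.62 ± 0.14 (adjusted p = 7.78e-05), and the level decreased by 34.9%, while 21.1% of genes were lower. The groups were also apart under TMM, with a log2 fold change of -0.22 ± 0.06 (adjusted p = 0.00781). Without shDYRK1A 1A it was -0.72 with the spike-in scale, which passes the fold threshold.

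GPX4, the selenoprotein that reduces lipid hydroperoxides with glutathione and restrains ferroptosis, lies on the plus strand of chromosome 19 at 1103926 to 1106791. It had 8157, 8220 and 7019 normalized counts in shControl and 6745, 6493 and 6192 in shDYRK1A. The groups did not overlap, yet the log2 fold change of -0.27 ± 0.13 missed the threshold (adjusted p = 0.0676), and 70.2% of genes had a lower one. The TMM-scaled values, at 175, 176 and 179 CPM in shControl and 184, 215 and 186 CPM in shDYRK1A, stood in the opposite order. The TMM log2 fold change was 0.14 ± 0.06 (adjusted p = 0.0533), so the direction turned with the scaling and neither of these values passed. Other fits fell on either side of the threshold in both directions: the DESeq2 Wald test on the spike-in scale gave an adjusted p of 0.0231 for a lower level, and median-of-ratios scaling gave 0.0479 for a higher one.

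Levels of different genes were compared per kilobase of exon, as spike-in normalized counts in shControl (mean ± SD, n = 3). NQO1 stood first at 57846 ± 4155 per kilobase, and by its mean over all 6 libraries it had rank 18 among all genes tested. TXNRD1 followed at 12700 ± 1248. The transcription factor gene NFE2L2, at 5773 ± 639, and the reductase gene GSR, at 5106 ± 487, came next. GPX4 had 3863 ± 335. The ligase subunits stood at 2601 ± 311 for GCLC and 1855 ± 202 for GCLM. HMOX1, at 1097 ± 70.8, and KEAP1, at 1046 ± 89.0, were lower again, and SRXN1 was last at 17.6 ± 3.55. Neighbours in this order were apart in every library except NFE2L2 and GSR, and HMOX1 and KEAP1, whose libraries overlapped. The length counts all annotated exon bases, so a gene with many long isoforms can be placed too low. SRXN1 can be too, since 85.0% of its exon bases are shared with another gene.

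The wider system was read from 7 lists of 94 further genes, of which 78 passed the filter. The lists were chosen with earlier results of these data known, so their shares beside those of all genes are description only. Of the 78 genes 16 were called lower (20.5%, against 14.3% of all genes) and 0 higher, and 54 were lower by the adjusted p alone, against 63.4% of all genes. With TMM scaling 2 were called lower, against 187 of all 9697 genes, which is also the background for the TMM calls of each list below. The median log2 fold change of the 78 genes was -0.50, against -0.40 over all genes. Under TMM 33 of the 78 were lower by the adjusted p alone, against 28.6% of all genes, and 22 higher, against 27.3%, the latter about the background share.

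The list of glutathione supply also holds genes of glutathione breakdown, such as CHAC1, so its values are not a measure of precursor supply alone. It showed the lowest median of the 7 lists, -0.80 over 9 genes tested, with 5 called lower, against 14.3% of all genes. Under TMM the median was -0.40 and 1 of the 9, CHAC1, was called lower, against 187 of all 9697 genes. CHAC1, which degrades glutathione, fell from 913 ± 119 to 257 ± 10.2 normalized counts (SD, n = 3), a log2 fold change of -1.83 ± 0.17 (adjusted p = 1.00e-24). CTH, which makes cysteine from cystathionine, was at -1.01. Both chains of the cystine transporter were lower, SLC7A11 at -0.89 and SLC3A2 at -0.86, and CBS, the step before CTH, was at -0.80. GSS, which completes glutathione after the GCLC and GCLM step, had 5899 ± 618 and 5357 ± 381 normalized counts and a log2 fold change of -0.14 ± 0.14 (adjusted p = 0.354), and under TMM its direction turned, to 0.27 (adjusted p = 0.000241). GGT7 had the top value of this list at 0.01 and did not pass, and it was at 0.41 under TMM (adjusted p = 3.54e-05).

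In the list of glutathione use 4 of 17 genes were called lower, against 14.3% of all genes, with a median of -0.50, and 0 under TMM. They were the glutaredoxin GLRX3 at -0.90, GSTCD at -0.86, the omega-class transferase GSTO1 at -0.83 and GPX8, a peroxidase of the endoplasmic reticulum, at -0.72. GPX1, the abundant cytosolic glutathione peroxidase and a selenoprotein, had 3813 ± 272 and 4453 ± 301 normalized counts and a log2 fold change of 0.22 ± 0.14 that did not pass (adjusted p = 0.139). Under TMM it was 0.63 (adjusted p = 4.49e-05).

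In the rest of the thioredoxin system 0 of 11 genes were called in either direction, where 14.3% of all genes were called lower, and 6 were lower by the adjusted p alone, where 63.4% of all genes were. The median of -0.40 equalled that of all genes. PRDX6, a peroxiredoxin, had the lowest value at -0.65 ± 0.13 (adjusted p = 6.88e-06). PRDX5, a peroxiredoxin of mitochondria and peroxisomes, had the top value at -0.03 (adjusted p = 0.825), which turned to 0.38 under TMM (adjusted p = 0.000153). Without shControl 1C the number called lower was 2.

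Of the NRF2 partners and competitors 2 of 9 were called lower, against 14.3% of all genes, with a median of -0.50, and 0 under TMM. SQSTM1, the autophagy receptor p62 that binds KEAP1, fell by 0.82 on the log2 scale (adjusted p = 1.17e-09), and BACH1, a repressor that competes for antioxidant response elements, fell by 0.75 (adjusted p = 4.33e-06). MAFK, a small MAF partner, had the top value at 0.11 ± 0.15 (adjusted p = 0.503), and under TMM it was 0.52 (adjusted p = 1.60e-05). Without shControl 1A or shDYRK1A 1B the number called was 1.

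Other NRF2 target genes had 4 of 24 called lower, about the 14.3% of all genes, and a median of -0.50. AKR1B10, an aldo-keto reductase, fell from 70803 ± 7071 to 25382 ± 1187 normalized counts, a log2 fold change of -1.48 ± 0.13 (adjusted p = 9.61e-28), and was the gene of this list past both thresholds under TMM, at -1.07. UGDH, which makes UDP-glucuronate, was at -0.91, OSGIN1 at -0.89 and AKR1C2 at -0.83. The AKR1B and AKR1C genes have near-identical copies, so the split of reads among them is uncertain. SLC48A1, a heme transporter, had the top value at -0.08 (adjusted p = 0.629), which turned to 0.31 under TMM (adjusted p = 0.00219).

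Among superoxide dismutases and catalase, 0 of 3 genes tested were called, where 14.3% of all genes were called lower. The median was -0.07, with SOD1 at -0.35 ± 0.13 (adjusted p = 0.0131) and CAT at -0.02 ± 0.14 (adjusted p = 0.888). Under TMM these directions turned, with a median of 0.33, SOD1 at 0.06 (adjusted p = 0.414) and CAT at 0.38 (adjusted p = 0.000177). By the adjusted p alone 2 of the 3 genes were then higher, against 27.3% of all genes. Of the factors that insert selenocysteine, needed for TXNRD1 and GPX4, 1 of 5 was called lower, against 14.3% of all genes. Their median was -0.50, and 0 were called under TMM. The gene called was SECISBP2, at -0.71 ± 0.15 (adjusted p = 2.28e-05). It lay within 0.01 of the fold threshold and was not called when shDYRK1A 1B, shControl 1A or shControl 1B was left out. EEFSEC, the elongation factor for selenocysteine, had the top value at -0.17 ± 0.16 (adjusted p = 0.313), which turned to 0.23 under TMM (adjusted p = 0.0286).

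**Figure D5:**
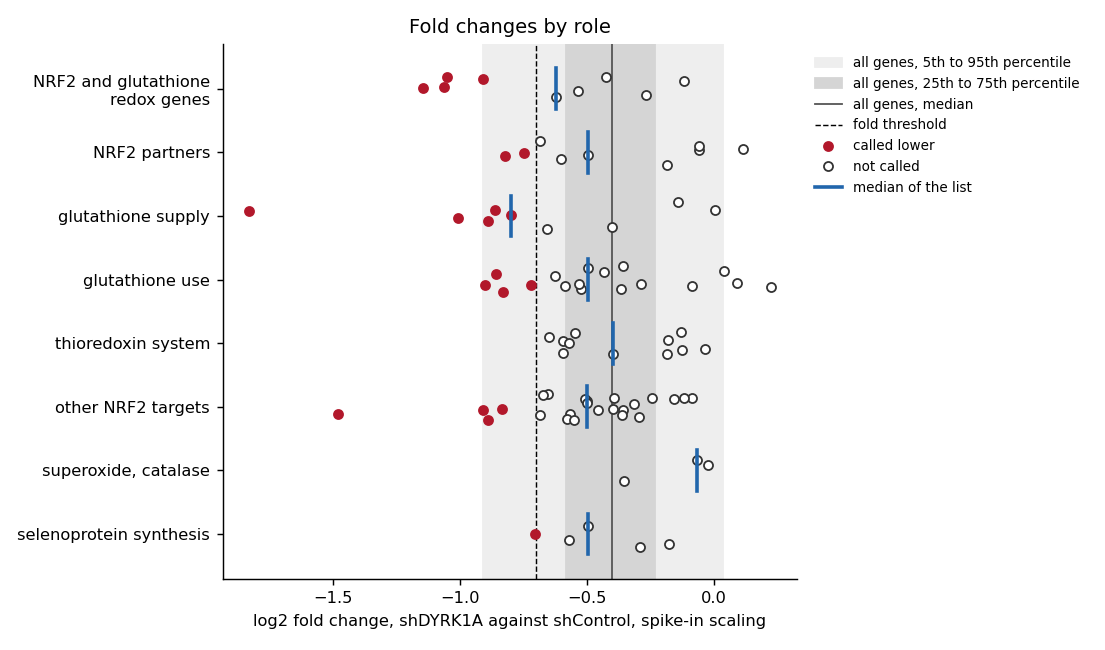
Log2 fold changes of shDYRK1A against shControl with the spike-in scale for the 9 members and the 7 lists, with 1 point per gene past the filter, filled where called lower, and a bar at each median; shaded bands give the spread of all genes and the dashed line the fold threshold of -0.7. The glutathione supply list has its median at -0.80 and the superoxide and catalase genes at -0.07, to either side of the median of all genes at -0.40. The supply list also holds genes of glutathione breakdown, such as CHAC1.

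Genes tested with and without the antioxidant response element core in a promoter window were also compared. The core is a short pattern with free letters, found in 13.3% of all windows, so many matches need not be elements that NRF2 binds. Binding was not tested, so the comparison cannot tell what bound elements do. The 1507 genes tested with the core in a window showed a median log2 fold change of -0.40, with 14.7% called lower, and the 6087 genes with windows but no core showed a median of -0.41, with 14.5% called lower.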

How the data were processed

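RNA-seq was analysed for 6 T98G libraries, 3 per group, grouped by their titles. The authors deposited raw counts per gene for each library, made with STAR on hg38 and dm3 per the submitters' processing notes, from stranded paired-end mRNA libraries. Summary lines that name no gene were left out. Unmapped reads made up 8.44 to 15.6% and ambiguous reads 3.42 to 3.59% of reads. A deposited normalized signal table holds the counts divided by 1 size factor per library, which the authors derived from fly reads. The table of the authors' own DESeq2 comparison was not used. Coordinates equalled GENCODE v29 for 95.8% of genes, so the build was taken as GRCh38.

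Size factors were recovered as raw counts over normalized signal (0.821 to 1.21). The filter required a mean normalized count above 10, as CPM of the mean library. Groups were compared in edgeR 4.0.16 (glmQLFit and glmQLFTest, robust) in R 4.3.3, with Benjamini-Hochberg adjustment over 9697 genes. The SE equals the absolute log2 fold change over the root of the F statistic. For ratios an exact permutation test, two-sided, was used (scipy 1.17.1). Code was tested on simulated data. The alternatives comprised DESeq2 1.42.0, scaling by TMM or by median-of-ratios, other filters and thresholds, a replicate block and leaving out each library. Named genes were the 10 members, DYRK1A, in each list up to 4 called genes with the strongest change plus the lowest and the highest, and the 3 genes nearest to NFE2L2. CBS was the fifth called gene of its list and GSS was added after its value was seen. The members and lists were chosen with earlier results of these data known. Few counts and exon bases shared with another gene limit SRXN1, and the number of libraries limits the rest.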

Additional observations from a re-analysis of the deposited data

How the results depend on the processing

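With 4 of 9 members called lower in the main analysis, the number was 4 with DESeq2 and 4 with a replicate block, 5 with filterByExpr or no filter, where SRXN1 entered, 3 at an absolute log2 fold change above 1, and 7 by the adjusted p alone. It was 1 with TMM scaling, with median-of-ratios scaling, and with TMM plus the replicate block. Leaving out each library gave 4 to 5. The scaling turned 2 members: KEAP1 was at 0.29 with TMM, with median-of-ratios and with the block plus TMM, and GPX4 was at 0.14 under each of these, with adjusted p of 0.0533, 0.0479 and 0.0297. On the spike-in scale DESeq2 took GPX4 past the adjusted p threshold at -0.27 (0.0231), as did leaving out shControl 1C at -0.34 (0.00693). The log2 GCLC to GCLM ratio ran from -0.018 (without shDYRK1A 1B) to 0.052 when single libraries were left out, the NFE2L2 to KEAP1 ratio from -0.33 to -0.27 and the TXNRD1 to GSR ratio from -0.26 to -0.22.

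Over all genes, 1386 were called lower and 27 higher. The numbers were 187 and 121 with TMM, 184 and 125 with median-of-ratios, 189 and 118 with the replicate block plus TMM, 2492 and 229 with filterByExpr, 2468 and 224 without a filter, 6145 and 105 by the adjusted p alone, 305 and 9 beyond a log2 fold change of 1, and 920 to 2098 and 17 to 33 when 1 library was left out. With TMM the number called lower was 0 for the NRF2 partners, 1 for glutathione supply, 0 for glutathione use, 1 for other NRF2 targets and 0 for selenocysteine insertion, which had 2 without a filter. Leaving out 1 library gave 1 to 3 for the partners, 5 to 6 for supply, 2 to 5 for use (2 without shDYRK1A 1B), 0 to 2 for the thioredoxin system, 4 to 6 for other targets and 0 to 1 for selenocysteine insertion. Ordering members per gene in place of per kilobase kept 4 of 10 ranks. The TMM fits that left out 1 library were chosen after seeing the data. The cause of these shifts was not tested, other than that the scaling moves all genes together.

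Same-lettered libraries correlated at 0.151, 0.073 and 0.128 in their deviations from the group means, so the letters were not taken to pair the samples. The replicate block called 1394 genes lower and 28 higher, and it changed no call of a member.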
